A study of Mus musculus with 6 samples.

Results

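Jarid2 and 9 genes of the Polycomb Repressive Complex 2 (PRC2) were examined in whole pancreases of e15.5 mouse embryos, at the time when most endocrine cells form. The 10 genes were *Jarid2*, *Ezh1*, *Ezh2*, *Eed*, *Suz12*, *Rbbp4*, *Rbbp7*, *Mtf2*, *Phf1* and *Phf19*. They were read by every probe set annotated to just 1 of them, which gave 31 of the 45101 probe sets on the array. The 3 *Jarid2* WT samples are labelled wild-type, and the 3 *Jarid2* Δpanc samples carry a pancreas-specific deletion of *Jarid2* (*Pdx1-Cre;Jarid2* flox/flox). Each sample is titled as the pancreas of an embryo. The strain is labelled C57BL/6. The p-values set group differences against the spread between these embryos, with a variance that limma adjusts by that of all probe sets. They therefore also depend on how dim probe sets are handled. The sources used here do not say whether the wild-type embryos carried the Cre transgene or floxed alleles. The Pdx1 promoter drives Cre in the pancreatic epithelium, where recombination was mosaic, so that mesenchymal, endothelial and blood cells and part of the epithelium keep an intact gene. From each pancreas 50 ng of RNA was amplified and hybridized to an Affymetrix Mouse Genome array.

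PRC2 places methyl groups on lysine 27 of histone H3, a mark of silenced genes. Ezh1 and Ezh2 are its alternative catalytic subunits. Eed binds the methylated histone tail, Suz12 is the scaffold of the complex, and Rbbp4 and Rbbp7 are closely related histone-binding subunits shared with other chromatin complexes. The accessory proteins define different forms of PRC2. One form holds a Polycomb-like protein, Phf1, Mtf2 or Phf19, and another holds Jarid2 together with Aebp2. In the embryonic pancreas, Ezh2 is known to restrain the endocrine fate. Jarid2 belongs to the Jumonji family of demethylases but lacks catalytic activity.

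The 4 genes with probe sets whose groups were apart, *Mtf2*, *Suz12*, *Eed* and *Rbbp4*, and the deleted gene *Jarid2* were chosen after their values were seen and are shown by the 250 bases before their start, since CpG-rich sequence near the start is the kind of sequence that PRC2 itself occupies. Sequences are from RefSeq (GRCm38.p6), written 5′ to 3′ on the strand of the gene, with each CpG in capitals. For *Jarid2* and *Mtf2*, which have a pair of starts each in that table, the upstream one is shown.
Mtf2, chr5:108065424-108065673, plus strand: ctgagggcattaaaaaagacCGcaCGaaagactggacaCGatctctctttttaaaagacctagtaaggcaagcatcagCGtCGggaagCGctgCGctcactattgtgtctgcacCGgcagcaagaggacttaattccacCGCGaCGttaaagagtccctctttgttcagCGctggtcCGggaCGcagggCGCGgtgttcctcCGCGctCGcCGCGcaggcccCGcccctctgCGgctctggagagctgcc
Suz12, chr11:79992856-79993105, plus strand: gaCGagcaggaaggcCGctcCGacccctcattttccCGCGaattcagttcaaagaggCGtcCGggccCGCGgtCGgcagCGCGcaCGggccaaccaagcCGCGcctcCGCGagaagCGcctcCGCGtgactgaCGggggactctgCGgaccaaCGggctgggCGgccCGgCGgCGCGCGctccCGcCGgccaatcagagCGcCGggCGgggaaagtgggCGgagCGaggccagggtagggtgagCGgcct
Eed, chr7:89980977-89981226, minus strand: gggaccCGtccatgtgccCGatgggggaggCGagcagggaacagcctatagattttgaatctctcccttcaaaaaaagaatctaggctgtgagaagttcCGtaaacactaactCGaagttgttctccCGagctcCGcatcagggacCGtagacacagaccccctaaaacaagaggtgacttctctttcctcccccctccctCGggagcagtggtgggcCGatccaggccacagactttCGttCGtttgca
Rbbp4, chr4:129335371-129335620, minus strand: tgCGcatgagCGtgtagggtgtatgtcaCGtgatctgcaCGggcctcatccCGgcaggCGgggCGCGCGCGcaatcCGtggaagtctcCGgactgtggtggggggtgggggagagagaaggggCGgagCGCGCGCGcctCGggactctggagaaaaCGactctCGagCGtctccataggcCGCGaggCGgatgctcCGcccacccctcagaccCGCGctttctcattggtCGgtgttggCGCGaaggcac
Jarid2, chr13:44730524-44730773, plus strand: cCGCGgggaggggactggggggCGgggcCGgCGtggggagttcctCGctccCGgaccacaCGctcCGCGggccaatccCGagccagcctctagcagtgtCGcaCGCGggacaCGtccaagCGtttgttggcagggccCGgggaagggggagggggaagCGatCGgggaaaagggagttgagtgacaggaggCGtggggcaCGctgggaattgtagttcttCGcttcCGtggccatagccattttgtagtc

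These windows held 23 CpG for *Mtf2*, 37 for *Suz12*, 12 for *Eed*, 30 for *Rbbp4* and 23 for *Jarid2*, against a median of 6 over 32851 RefSeq promoter windows of the same length. All 10 genes were in the table, with 12 starts, and their CpG counts ranged from 2, at the downstream start of *Mtf2*, to 37. The letters of an E2F motif (TTTCCCGC, TTTGGCGC, TTTCGCGC or TTTGCCGC, on either strand) were present upstream of *Suz12* and *Phf19* and in 1.86% of all windows. The CCAAT box (CCAAT, on either strand) was present in 6 of the 12 windows, those of *Ezh2*, *Suz12*, *Rbbp4*, *Rbbp7*, *Jarid2* and *Mtf2*, and in 33.8% of all. In *Jarid2* it lay in the upstream window shown, and in *Mtf2* in the window of the downstream start, which is not shown. A match of letters is a description of the sequence and not a binding site.

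The values are MAS5 signals, linear whole numbers scaled to the same trimmed mean of 150 on every array. Signals under 16 were set to 16 before log2 was taken, and groups were compared with limma over all 45101 probe sets with Benjamini-Hochberg adjustment. Signals of different probe sets are not on a common scale, so that levels are compared only within a probe set. The array median was 35 to 38, and 26.5% to 29.0% of probe sets lay under the floor. *Jarid2* WT replicate 3 stood apart from the other 5 samples in skeletal muscle transcripts, with a summed signal of 17953 over 12 muscle genes against 383 to 527. *Jarid2* WT replicates 1 and 2 carried Y-linked transcripts and the other 4 samples did not. Sex was thus unbalanced between the groups in every comparison except the alternative with *Jarid2* WT replicate 3 as the only control. The part of sex in the values of the members was not tested. In bulk tissue, fewer cells of a type and less RNA per cell cannot be told apart.

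The *Jarid2* transcript was detected at a similar signal in both groups by each of its 3 probe sets. Probe set 1422698_s_at, the brightest, read 335, 301 and 415 in *Jarid2* WT and 392, 398 and 355 in *Jarid2* Δpanc. Probe set 1422697_s_at read 298, 274 and 324 in *Jarid2* WT and 308, 320 and 306 in *Jarid2* Δpanc. Probe set 1450710_at read 129, 123 and 93 in *Jarid2* WT and 103, 138 and 106 in *Jarid2* Δpanc. The groups overlapped in all 3 probe sets, and the 2 brighter ones were highest in *Jarid2* WT replicate 3 whereas the third was lowest there. The log2 fold changes of *Jarid2* Δpanc over *Jarid2* WT were 0.13 (95% interval -0.23 to 0.50), 0.06 (-0.12 to 0.25) and 0.01 (-0.49 to 0.51), with adjusted p of 0.859, 0.883 and 1 from limma. For the brightest probe set the value was 0.03 without *Jarid2* WT replicate 2 and -0.12 with *Jarid2* WT replicate 3 as the only control. Without *Jarid2* WT replicate 3 it was 0.26, with an unadjusted p of 0.0398 and an adjusted p of 0.581 from limma. The floxed part of the gene is exon 3, and the position of the probes within the transcript was not determined here. By qRT-PCR of the floxed exon, the study found a reduced level in pancreases with the deletion at the same embryonic age. A probe set outside the deleted exon checks nothing about the deletion. An s_at probe set can also hybridize to transcripts of other genes.

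**Figure D1:**
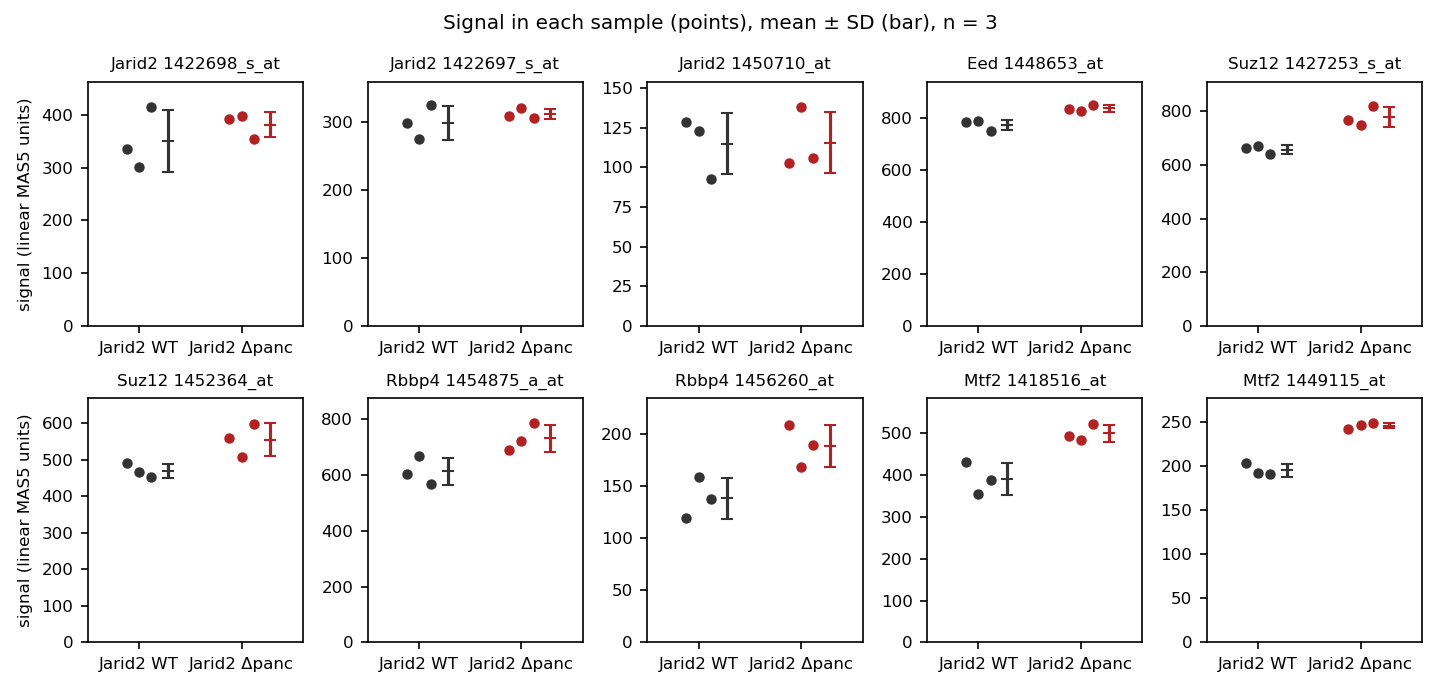
Signal of 10 probe sets in each sample (points; vertical axis, linear MAS5 units from 0), with the mean and SD of the 3 samples of each group beside them. The groups overlap in the 3 *Jarid2* probe sets and are apart in the 7 probe sets of *Mtf2*, *Suz12*, *Eed* and *Rbbp4*, where every *Jarid2* Δpanc sample is above every *Jarid2* WT sample.

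Among the catalytic subunits, neither *Ezh2* nor *Ezh1* passed the test. *Ezh2* (probe set 1416544_at) read 1015, 1058 and 1016 in *Jarid2* WT and 1138, 1030 and 1120 in *Jarid2* Δpanc. Replicate 2 of *Jarid2* Δpanc lay inside the range of the controls and the others above it, and the log2 fold change was 0.09 (95% interval -0.03 to 0.21, adjusted p = 0.812 from limma). *Ezh1* (probe set 1449023_a_at) was dim, with 111, 115 and 93 in *Jarid2* WT and 125, 121 and 113 in *Jarid2* Δpanc. Its groups overlapped at 113 to 115, and its log2 fold change was 0.18 (95% interval -0.09 to 0.44, adjusted p = 0.838 from limma). It was 0.08 without *Jarid2* WT replicate 3, the lowest control. The other 3 probe sets of *Ezh1* read at most 35 on any array, and one of them, 1429630_at, was under the floor on all 6, so that they give no usable fold change. The width of the *Ezh2* interval depended on how dim probe sets were handled. The interval was -0.19 to 0.37 at a floor of 1 and -0.15 to 0.32 without the dimmest 40% of probe sets.

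The non-catalytic core subunits *Eed* and *Suz12* had slightly higher signals in every *Jarid2* Δpanc sample in some of their probe sets. None of these passed the test over all probe sets. The study itself reported that PRC2 components did not change their expression to compensate for the loss of Jarid2. Which components it measured there is not given in its main text. *Eed* (1448653_at) read 784, 788 and 752 in *Jarid2* WT and 837, 826 and 851 in *Jarid2* Δpanc. The lowest *Jarid2* Δpanc sample lay above the highest control, with a log2 fold change of 0.11 ± 0.02 (SE; limma adjusted p = 0.393). The SE depended on how dim probe sets were handled. It was 0.02 with floors of 32 and 64 as well. With a floor of 1 it was 0.11 (limma unadjusted p = 0.328), and without the dimmest 40% of probe sets 0.09 (0.257). The second *Eed* probe set, 1453830_at, stayed at 25 or less on every array, near the floor. *Suz12* was read by 6 probe sets. In 1427253_s_at the signals were 663, 671 and 640 in *Jarid2* WT and 768, 751 and 820 in *Jarid2* Δpanc, and in 1452364_at they were 490, 465 and 453 against 560, 507 and 597. These groups did not overlap, and the log2 fold changes were 0.24 in both (SE 0.04 and 0.07, limma adjusted p = 0.306 and 0.559). The brightest *Suz12* probe set, 1420021_s_at, did not share this pattern. It read 968, 1062 and 914 in *Jarid2* WT and 941, 968 and 1094 in *Jarid2* Δpanc, with a log2 fold change of 0.03 (95% interval -0.20 to 0.26). The remaining 3, with signals of 26 to 118, had overlapping groups and log2 fold changes of -0.17, 0.03 and 0.48.

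The histone-binding paralogs *Rbbp4* and *Rbbp7* differed in their probe sets as well. *Rbbp4* read 604, 667 and 569 in *Jarid2* WT and 690, 721 and 786 in *Jarid2* Δpanc with 1454875_a_at, and 119, 158 and 137 against 208, 168 and 189 with 1456260_at. Every *Jarid2* Δpanc sample was above every control in both, with log2 fold changes of 0.26 and 0.45 (SE 0.08 and 0.14, limma adjusted p = 0.591 and 0.570). The brighter *Rbbp4* probe sets had overlapping groups. The signals of 1434892_x_at were 3467, 3318 and 3662 against 3854, 3642 and 3592, and those of 1454791_a_at were 1114, 1363 and 1331 against 1298, 1281 and 1308, with log2 fold changes of 0.09 and 0.04. *Rbbp7*, an X-linked gene, read nearly the same in both groups. Its brighter probe set, 1456227_x_at, read 6964, 6893 and 6702 in *Jarid2* WT and 7053, 6950 and 6589 in *Jarid2* Δpanc. The other, 1415775_at, read 5132, 5485 and 5321 against 5056, 5605 and 5182. The log2 fold changes were 0.00 and -0.01, with 95% intervals of -0.09 to 0.09 and -0.14 to 0.12, which widened to -0.27 to 0.27 and -0.30 to 0.28 with a floor of 1. An x_at probe set can share probes with related sequences, so that the values of 1434892_x_at and 1456227_x_at are uncertain.

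*Mtf2*, a Polycomb-like protein that recognizes methylated H3K36 and binds CpG-rich DNA, showed the clearest separation of the groups. Probe set 1449115_at read 204, 192 and 191 in *Jarid2* WT and 243, 247 and 249 in *Jarid2* Δpanc. With 195.7 ± 7.23 (SD, n = 3) against 246 ± 3.06 (SD, n = 3), the groups were apart by several times the spread within them. The log2 fold change was 0.33, with a 95% interval of 0.25 to 0.42. It had an unadjusted p of 0.000228 and, over all probe sets, a limma adjusted p of 0.190. With a floor of 1 its 95% interval was 0.06 to 0.60, with an unadjusted p of 0.0246 from limma. Probe set 1418516_at read 432, 355 and 388 against 493, 485 and 523, again without overlap, with a log2 fold change of 0.36 ± 0.08 (SE; limma adjusted p = 0.431). The other bright probe sets of *Mtf2* did not separate the groups. The signals of 1418515_at were 269, 289 and 314 against 313, 328 and 330, which overlap by 1 unit (log2 fold change 0.16, 95% interval -0.02 to 0.33). Those of 1418514_at were 368, 380 and 353 against 393, 379 and 347 (log2 fold change 0.02, 95% interval -0.13 to 0.18). The last 2 probe sets of *Mtf2* read at most 47.

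The Polycomb-like genes *Phf1* and *Phf19* were dim. *Phf1* (1416542_at) read 78, 38 and 55 in *Jarid2* WT and 62, 63 and 45 in *Jarid2* Δpanc, with a log2 fold change of 0.04. *Phf19* (1427920_at) read 66, 45 and 44 against 33, 52 and 54, with -0.17. The 95% intervals were -0.81 to 0.89 and -0.91 to 0.58, so that changes of up to those sizes could not be told from 0. The second probe set of *Phf19*, 1431857_at, read 44, 42 and 23 in *Jarid2* WT and 10, 37 and 17 in *Jarid2* Δpanc, partly under the floor.

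**Figure D2:**
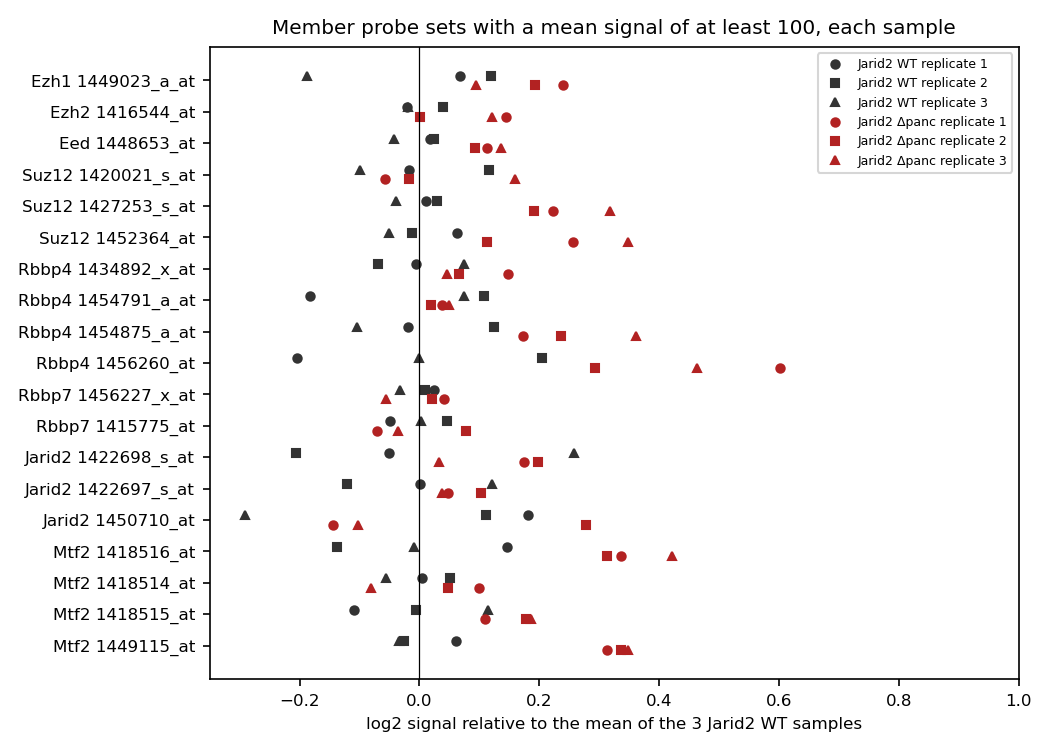
Log2 signal of the 19 member probe sets with a mean signal of at least 100, for every sample, less the *Jarid2* WT average (horizontal axis in log2 units; dark, *Jarid2* WT; red, *Jarid2* Δpanc; the shape gives the replicate). In 7 of them, of *Eed*, *Suz12*, *Rbbp4* and *Mtf2*, all red points lie to the right of all dark points, and in none do all lie to the left.

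Taken over all 31 member probe sets, 0 were lower and 0 higher by limma at an adjusted p under 0.05, where 0.00222% of all probe sets were lower and 0.00222% higher. That share stands for 1 probe set each way, the higher one of *Cp*, the gene of the plasma copper protein ceruloplasmin (1448734_at; 7, 13 and 16 against 23, 23 and 23) and a lower one with no gene name, 1422209_s_at (33, 33 and 31 against 15, 10 and 12), named after their values were seen and both at the edge of the floor. At an unadjusted p under 0.05, 7 member probe sets were higher and 0 lower, where 4.16% of all probe sets were higher and 3.24% lower. The 7 were the probe sets described above whose groups did not overlap, 2 each for *Mtf2*, *Suz12* and *Rbbp4* and 1 for *Eed*. With a floor of 1, 3 of them had an unadjusted p under 0.05, both of *Mtf2* and *Rbbp4* 1456260_at. Every *Jarid2* Δpanc sample lay above every *Jarid2* WT sample in 7 of 31 and below in 0, against 5.58% and 4.1% of all probe sets. All 7 belonged to the 19 member probe sets with a mean signal of at least 100. Among the 14154 probe sets of that brightness on the array, 6.37% were higher and 6.71% lower at an unadjusted p under 0.05, and 8.58% lay above and 8.5% below all controls.

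Of the 19 brighter member probe sets, 18 had a log2 fold change above 0, with a median of 0.11, against 52.6% and a median of 0.01 for all probe sets of that brightness. With every array scaled to the same median, 13 of 19 were above 0, with a median of 0.06, against 40% and -0.04 for all. The 7 probe sets named above kept a positive fold change in that setting, and 4 of them an unadjusted p under 0.05 from limma. Over probe sets of any brightness, 24 of 31 member probe sets were above 0, against 21345 of all 45101. In lists described below it was 18 of 20 for mesenchyme, 10 of 12 for endothelium and 27 of 37 for proliferation. It was 2 of 22 for the endocrine list and 0 of 16 for the acinar list. Probe sets of 1 gene share their transcript, the 10 genes are parts of 1 complex, and the same 6 samples lie behind each value, so that these counts are a description and were not tested as a group.

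**Figure D3:**
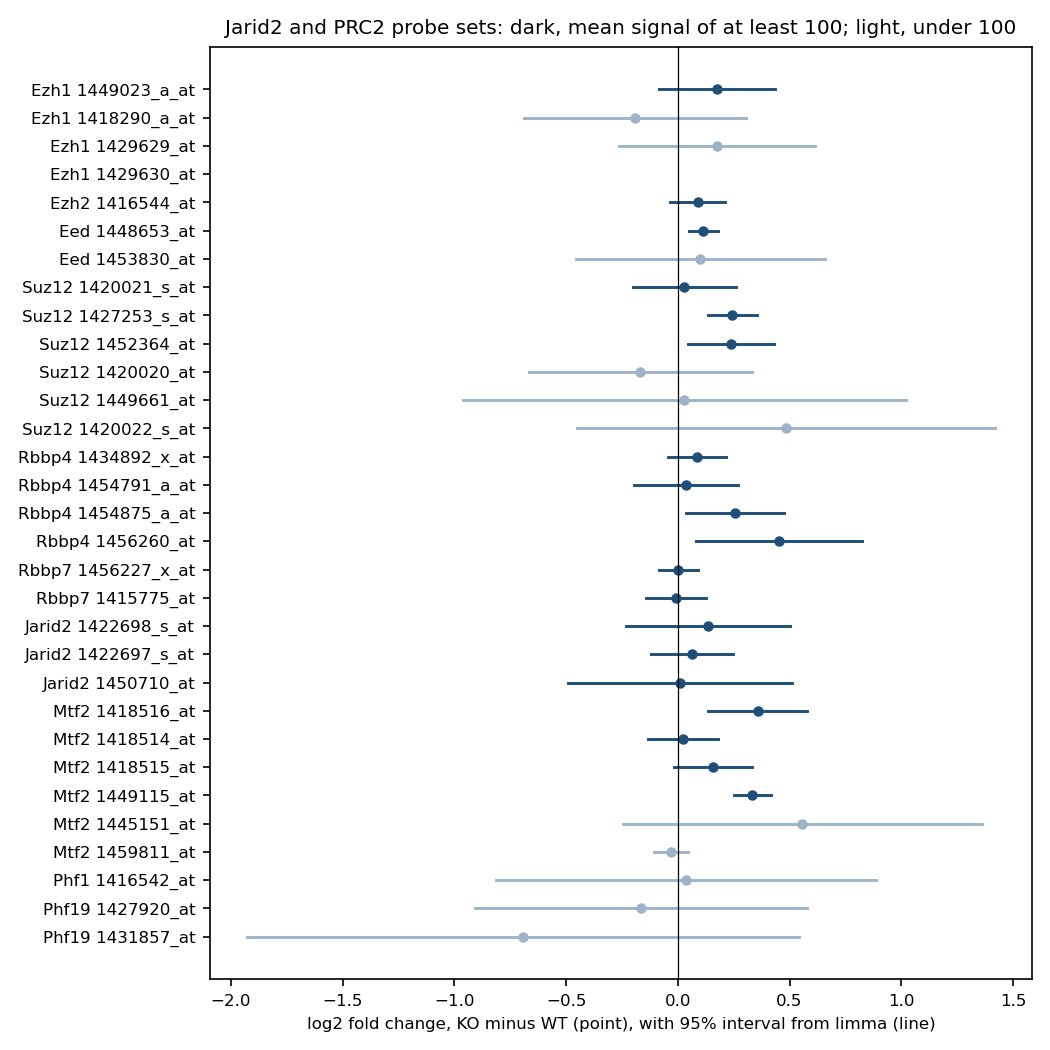
Log2 fold change of *Jarid2* Δpanc over *Jarid2* WT (points; horizontal axis) with the 95% interval from limma (lines) for the 31 member probe sets, dark for a mean signal of at least 100 and light for dimmer ones. One *Ezh1* probe set at the floor on all arrays has no point. The 3 *Jarid2* intervals span 0, and the *Phf1* and *Phf19* intervals are among the widest.

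On average, markers of acinar and endocrine cells lay lower in *Jarid2* Δpanc, while those of proliferation differed little. No probe set of these lists passed at an adjusted p under 0.05 from limma. On the log2 scale relative to the *Jarid2* WT mean, each list is given by the average of its genes in each sample. The 8 acinar genes lay at -0.78 to -0.74 in *Jarid2* Δpanc and at -0.16 to 0.22 in *Jarid2* WT. Of their 16 probe sets, 12 were lower at an unadjusted p under 0.05 from limma, where 3.24% of all probe sets were lower. These 12 were of *Cela1*, *Cela2a*, *Cela3b*, *Prss2* and *Clps*. *Cpa1*, *Ctrb1* and the brighter probe set of *Bhlha15* had overlapping groups (-0.07, -0.07 and -0.27). The 12 endocrine genes lay at -0.61 to -0.40 against -0.10 to 0.08, with 8 of 22 probe sets lower and 1 higher at that p. Those lower were of *Ins2*, *Iapp*, *Sst*, *Gcg*, *Ghrl* and *Neurod1*, and the higher one was a dim probe set of *Pax6*. No probe set of *Chga*, *Chgb*, *Neurog3*, *Isl1* or *Ppy* passed that p. The log2 fold change was -0.12 for *Chga* and -0.20 for the brighter probe set of *Neurog3*. The 9 genes of the pancreatic epithelium lay at -0.11 to 0.04 against -0.06 to 0.10, with 0 of 13 probe sets lower or higher, and the 8 endothelial genes at -0.03 to 0.15 against -0.04 to 0.02. The 10 mesenchyme genes lay at 0.08 to 0.18 in *Jarid2* Δpanc, inside the range of -0.18 to 0.26 in *Jarid2* WT. The 9 blood genes (-0.23 to 0.39 against -0.23 to 0.15) and the 5 genes of neurons and glia (-0.12 to 0.27 against -0.24 to 0.14) had overlapping groups. The 6 genes of the PRC2 core lay at 0.06 to 0.10 in *Jarid2* Δpanc and at -0.05 to 0.04 in *Jarid2* WT, and the 4 accessory genes at 0.02 to 0.19 and at -0.26 to 0.25. The part of cell composition in the values of the PRC2 genes was not tested.

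Many PRC2 core genes are expressed more in dividing cells, and 15 of 16 listed proliferation genes could be read. Their mean lay at 0.03 to 0.06 in *Jarid2* Δpanc and at -0.04 to 0.04 in *Jarid2* WT. Of 37 probe sets, 3 were higher and 0 lower at an unadjusted p under 0.05, against 4.16% and 3.24% of all probe sets. *Mki67*, the gene of the Ki67 antigen of cycling cells, read 2139, 2177 and 2196 in *Jarid2* WT and 2469, 2425 and 2451 in *Jarid2* Δpanc, without overlap (log2 fold change 0.17 ± 0.01 (SE), limma adjusted p = 0.181). Topoisomerase *Top2a* (1454694_a_at) read 2419, 2673 and 2536 against 2761, 2989 and 2760 (log2 fold change 0.16 ± 0.05 (SE), limma adjusted p = 0.622). The replication factor *Pcna* had overlapping groups (0.02). The other probe set past an unadjusted p of 0.05 was that of *Birc5*, the gene of survivin, with 1453, 1421 and 1427 against 1474, 1464 and 1462 (0.03).

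**Figure D4:**
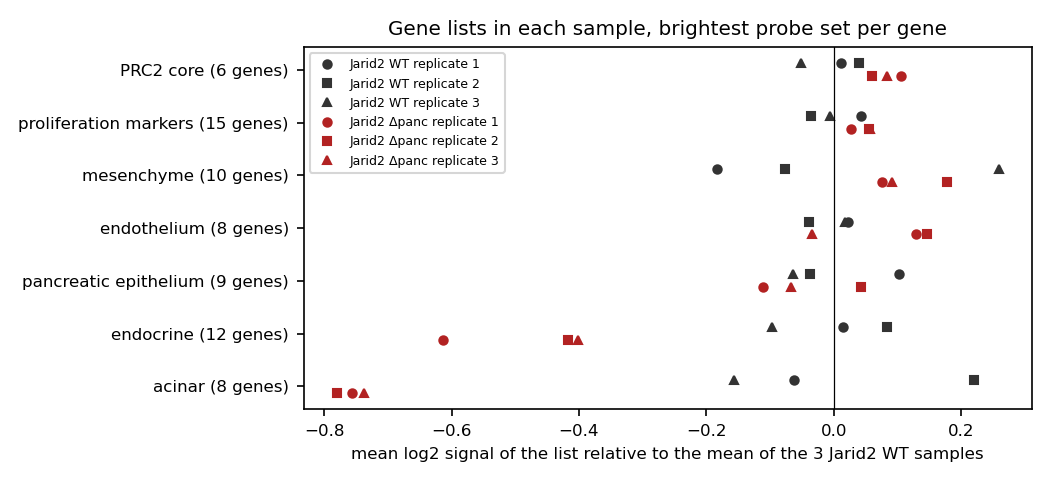
Average level of 7 lists of genes for every sample, less the *Jarid2* WT average (horizontal axis in log2 units; the brightest probe set stands for each gene). The acinar and endocrine lists lie far to the left in *Jarid2* Δpanc, while the PRC2 core and the proliferation list stay between -0.05 and 0.10 in all 6 samples.

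Other genes around PRC2 were read from lists. *Aebp2*, the partner of Jarid2 in its form of PRC2, read 538, 525 and 540 in *Jarid2* WT and 505, 622 and 623 in *Jarid2* Δpanc (1434080_at; log2 fold change 0.12, 95% interval -0.14 to 0.37). *Lcor*, whose locus encodes a subunit of the Polycomb-like form, read 918, 957 and 952 against 904, 975 and 865 (-0.04). Of the 17 probe sets of *Aebp2*, *Epop*, *Lcor*, *Lcorl* and *Ezhip*, 2 were higher and 0 lower at an unadjusted p under 0.05. Over all probe sets the shares were 4.16% and 3.24%. The 2 were both of *Lcorl*, a relative of *Lcor* (1439272_at with 60, 64 and 58 against 79, 76 and 78, and 1456712_at with 113, 102 and 93 against 135, 112 and 132). *Epop* and *Ezhip* lay at or near the floor. None of these passed at an adjusted p under 0.05.

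The H3K9 methyltransferases that Jarid2 associates with showed small differences. *Setdb1* (1451833_a_at) read 365, 361 and 382 in *Jarid2* WT and 383, 394 and 397 in *Jarid2* Δpanc, above all controls by as little as 1 unit (log2 fold change 0.08, adjusted p = 0.627 from limma). *Ehmt1* and *Ehmt2*, which encode GLP and G9a, had 0.08 and 0.13 with overlapping groups. Cyclin D1 (*Ccnd1*), a gene repressed through Jarid2 in heart, read 1429, 1217 and 1168 against 1330, 1337 and 1346 (0.08), and *Cdkn2a*, a classical PRC2 target, stayed under the floor on all 6 arrays.

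The *Kdm5* genes, H3K4 demethylases and the catalytically active relatives of Jarid2, included single probe sets with separated groups. *Kdm5a* (1452360_a_at) read 151, 166 and 148 in *Jarid2* WT and 220, 236 and 223 in *Jarid2* Δpanc, without overlap and with a log2 difference of 0.55 ± 0.06 (SE; limma adjusted p = 0.196). The brightest *Kdm5a* probe set, 1437105_at, did not show it, with 349, 291 and 372 against 322, 333 and 330 (-0.03). *Kdm5b* (1427143_at) read 468, 441 and 450 against 550, 593 and 529, without overlap, with a log2 fold change of 0.30 ± 0.05 (SE; limma adjusted p = 0.316). Of the 4 *Kdm5* genes, *Kdm5c* lies on X and *Kdm5d* on Y. The brightest *Kdm5c* probe set, 1444157_a_at, read 168, 200 and 258 against 207, 246 and 260. Of 22 probe sets of the 4 genes, 5 were higher and 0 lower at an unadjusted p under 0.05, against 4.16% and 3.24% of all probe sets. Apart from the one of *Kdm5a* these were 3 of *Kdm5b* and 1 dim probe set of *Kdm5c* at 0.36. Besides 1427143_at, those of *Kdm5b* were 1442278_at at 0.98 and 1457482_at at 0.24. The first of these lay near the floor, with 20, 15 and 15 against 53, 31 and 24. *Kdm5b* 1427142_s_at had overlapping groups (0.13).

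Some genes that act on H3K27 or H3K4 lie on the sex chromosomes and followed the sex-linked transcripts of the samples. *Xist* (1436936_s_at) read 24, 12 and 4390 in *Jarid2* WT and 4662, 4905 and 4197 in *Jarid2* Δpanc, and *Eif2s3y*, on Y, read 560, 506 and 9 against 7, 5 and 13. The Y-linked H3K27 demethylase homolog *Uty* (1426598_at) read 159, 139 and 8 against 8, 6 and 6, and the Y-linked *Kdm5d* (1424903_at) read 201, 150 and 6 against 10, 2 and 11. *Kdm6a*, the X-linked counterpart of *Uty* and a demethylase of H3K27, read 358, 347 and 507 in *Jarid2* WT and 645, 575 and 547 in *Jarid2* Δpanc (1427235_at; log2 fold change 0.56 ± 0.18 (SE), limma adjusted p = 0.587). In a further probe set, 1427672_a_at, it read 204, 184 and 230 against 269, 277 and 334 (0.51, adjusted p = 0.464). *Jarid2* WT replicate 3, the control without Y-linked transcripts, was the highest control in both and still below every *Jarid2* Δpanc sample. With 1 such control, sex and genotype cannot be told apart for *Kdm6a* or *Kdm5c*. *Rbbp7*, the X-linked member, had no such pattern, with 6964 and 6893 in the controls with Y-linked transcripts and 6589 to 7053 in the other 4 samples. The autosomal H3K27 demethylase gene *Kdm6b* had overlapping groups in its brightest probe set (0.00). It was just above all controls in 2 dimmer ones, where 5.58% of all probe sets lay above all controls. These read 62, 62 and 51 against 63, 79 and 82 (1442643_at) and 222, 166 and 212 against 223, 283 and 290 (1447612_x_at). Their unadjusted p was 0.0622 and 0.0640 from limma.

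**Figure D5:**
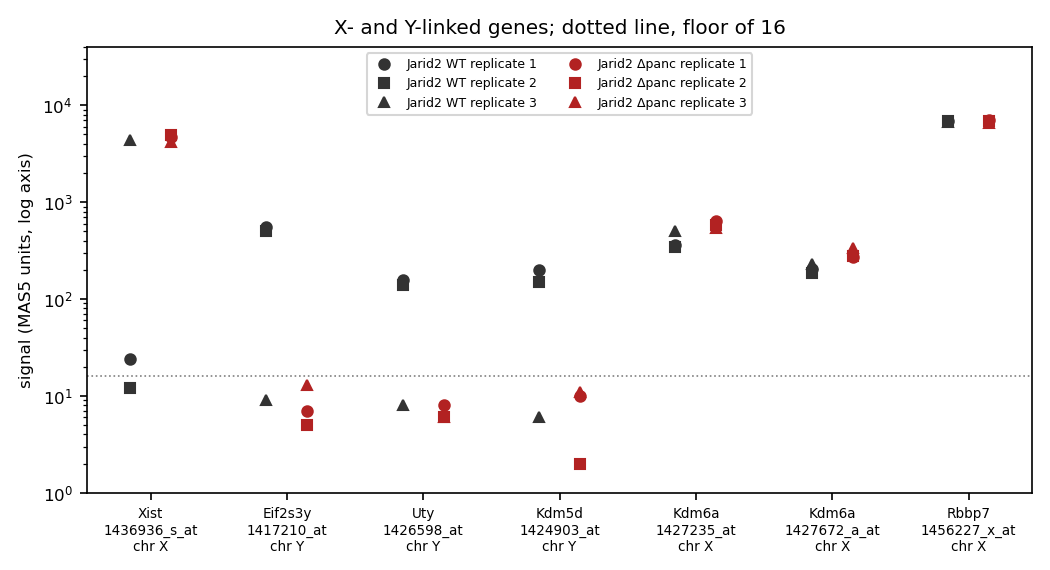
Signal of 6 probe sets of X- and Y-linked genes and of the X-linked member *Rbbp7* in each sample (vertical axis, MAS5 units on a log axis; dotted line, the floor of 16). *Jarid2* WT replicates 1 and 2 are high in *Eif2s3y*, *Uty* and *Kdm5d* and low in *Xist*, the other 4 samples the reverse, and *Rbbp7* is level in all 6.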

How the data were processed

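RNA of 3 *Jarid2* WT and 3 *Jarid2* Δpanc pancreases was hybridized to 1 array each. The deposited values are intensities, which the authors made with MAS5 according to the processing notes (version not given), on a linear scale. The methods name RMA and limma for the study's own analysis. RMA starts from scanner files, which were not used here. A description label names islets in glucose, and the other labels, which name e15.5 pancreas, were followed. No detection calls, scan dates or batches were given. Titles do not say whether samples share a litter. The study describes the controls of its e15.5 work as littermates, without saying which array samples share a litter.

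Of the 45101 probe sets, 34958 carry 1 gene symbol, 932 several and 9211 none in the annotation used here. Values were floored at 16, put on a log2 scale and fitted over all probe sets by lmFit and eBayes (limma 3.58.1, R 4.3.3, with 4 residual and 0.5 prior degrees of freedom). Of these, 6169 were at or under the floor on all arrays and share a variance near 0. The fit was tested on simulated data. Precision is limited by the number of arrays, and an exact permutation test of 3 against 3 cannot give a p under 0.1. The named genes were all probe sets of the 10 members and, of the other lists, the brightest probe set of a gene and those past an unadjusted p of 0.05. The members and lists were chosen with earlier results of these data known. The 16 alternatives covered the floor, scaling, a filter on dim probe sets, the variance model, 1 probe set per gene, left-out samples, a single control and the replicate number as a block.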

Additional observations from a re-analysis of the deposited data

How the results depend on the processing

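No member probe set passed an adjusted p of 0.05 from limma in any alternative but 1. With *Jarid2* WT replicate 3 as the only control, *Mtf2* 1449115_at passed (1 higher, adjusted p = 0.0488), its spread being assumed to be that of the other group. In that setting 985 probe sets were lower and 81 higher over the whole array, and that control is the one with muscle transcripts. It also lacked Y-linked transcripts, as did the *Jarid2* Δpanc samples. Over all probe sets, 1 was lower and 1 higher in the main fit. With floors of 1, 32 or 64, without the dimmest 40%, with 1 probe set per gene and with the replicate block it was 0 and 0, with quantile normalization 4 and 4, and with median scaling 2 lower. Leaving out 1 sample gave 1 to 25 lower and 4 to 23 higher. The count of 7 higher member probe sets at an unadjusted p under 0.05 became 3 with a floor of 1, 4 with median scaling, 4 without the dimmest 40%, 2 with 1 probe set per gene (2 tested of the 7), 5 with the replicate block and 4 to 7 without 1 sample, and 0 to 2 were then lower.

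Some fold changes changed sign between settings, and none of them was called. *Jarid2* 1422698_s_at was -0.12 and 1422697_s_at -0.058 with *Jarid2* WT replicate 3 as the only control, where *Rbbp4* 1454791_a_at was -0.039 and *Phf19* 1427920_at 0.041. With median scaling *Suz12* 1420021_s_at was -0.022, *Rbbp4* 1454791_a_at -0.015, *Rbbp7* 1456227_x_at -0.048, *Jarid2* 1450710_at -0.040, *Mtf2* 1418514_at -0.028 and *Phf1* 1416542_at -0.014. With quantile normalization *Rbbp7* 1415775_at was 0.087, *Jarid2* 1450710_at -0.038 and *Phf1* -0.027, and with a floor of 64 *Phf1* was -0.095. Leaving out 1 sample gave -0.037 to 0.087 for *Suz12* 1420021_s_at, -0.056 to 0.090 for *Rbbp4* 1454791_a_at, -0.018 to 0.031 and -0.053 to 0.021 for *Rbbp7* 1456227_x_at and 1415775_at, -0.14 to 0.10 for *Jarid2* 1450710_at, -0.017 to 0.073 for *Mtf2* 1418514_at, -0.23 to 0.29 for *Phf1* and -0.29 to 0.062 for *Phf19* 1427920_at. The causes were not tested. Deviations of same-numbered samples from their group means correlated at -0.042, -0.057 and -0.045 over 14154 probe sets. Such deviations sum to 0 within a group of 3, so that these values cannot show whether samples were paired.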
